A study of Arabidopsis thaliana with 27 samples.

Results

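The comparison described here set methyl jasmonate against ethephon in Arabidopsis thaliana, time by time. Of 27 two-colour arrays in the series, 8 belong to it: 4 arrays of plants sprayed with 0.1 mM MeJA (methyl jasmonate, titled JA) and 4 arrays of plants sprayed with 1 mM ET (ethephon, which releases ethylene inside plant tissue), harvested 2, 5, 10 and 24 h after spraying. Arrays were matched by agent and time as their titles give them, and each MeJA array was paired with the ET array of the same time. All plants were of the Columbia ecotype, grown in soil and 28 days old. Each array set treated RNA, labelled with Cy5, against RNA of untreated plants, labelled with Cy3, and the dyes were not swapped. No mock spray is described, so a value against untreated plants may hold effects of dye, spraying or humidity. A dye effect that is the same on every array cancels between MeJA and ET.

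The doses differed and each agent was used at 1 dose, so every difference below is between these treatments as applied. There was 1 array for each agent and time. Per the labels, plants of several replicate experiments were pooled before RNA extraction, so the spread between those experiments is not in the data. For the ET 10 h sample, a protocol entry names 5 h, and the 10 h of its title and source name was used. The labels call the tissue both leaves and whole plant without root. Of 4 leaf markers (RBCS1A, CAB1, CAB2 and LHCB2.1) and 3 flower and seed markers, 0 had a named spot, so the tissue could not be checked with them.

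Jasmonates are lipid-derived hormones of wounding and of defence against chewing insects and necrotrophic fungi. The conjugate of jasmonate with isoleucine binds the receptor COI1, which leads to loss of JAZ repressors and frees transcription factors such as MYC2. Ethylene is sensed at the endoplasmic reticulum by receptors that keep the kinase CTR1 active until the gas binds, after which EIN2 and EIN3 switch on ethylene response factors. Both hormones together induce the defensin gene PDF1.2, while the MYC2 branch of jasmonate output (wound and insect genes) is known to be held down by ethylene. Ethylene also speeds leaf ageing.

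The 8 arrays held values for 1645 (MeJA 24 h) to 2358 (ET 10 h) of 2560 spots. Their deposited medians ran from -0.19 to 1.20 for ET and from -0.06 to 0.75 for MeJA on the log2 scale, and each array was centred on its own median. All values below are log2 of treated over untreated after this centring. The choice matters for direction: over the 180 genes tested, the median of MeJA minus ET was -0.23 after centring, -0.58 as deposited and 0.33 after centring on TUA5, an alpha-tubulin gene. TUA5 itself stood at -0.18, -1.01, -1.33 and -1.17 under MeJA at 2, 5, 10 and 24 h, and at 0.04, -0.56, -0.28 and -0.66 under ET. MeJA minus ET for TUA5 was -0.56 ± 0.23 (SE; limma, adjusted p = 0.089).

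MeJA and ET differed by the test in 38 of the 180 tested genes, which is 21.1% (limma, Benjamini-Hochberg adjusted p under 0.05, mean over the 4 times). Of these, 15 were higher under MeJA (8.33%) and 23 were higher under ET (12.8%). The difference had 1 sign at every measured time in 35 of the 38, and the sizes ran from 0.65 to 5.16. The genes higher under MeJA were led by a TRAF-like protein gene, a jacalin lectin and a thionin. Those higher under ET were led by a class III peroxidase, a PEARLI 4-like gene and a PQ-loop protein gene. The median half-width of the 95% interval was 0.61, so differences smaller than about that size could mostly not be called.

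The split between the directions depends on the centring: it was 34 higher under MeJA and 9 higher under ET after centring on TUA5, 7 and 15 with values as deposited, and 20 and 27 after quantile normalization. No called difference changed sign in any of these. The count fell to 22 genes without the 5 h arrays and to 18 without the 10 h arrays of all agents, to 24 with MeJA and ET fitted alone, and to 11 without a common time term. KIN2, AT1G66100, FDH, AT2G41090, AT1G78830 and AT1G78850 lost their calls without the time term and in no other alternative. Leaving out each time in turn kept 15 of the 38 calls, 6 higher under MeJA and 9 higher under ET.

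**Figure D1:**
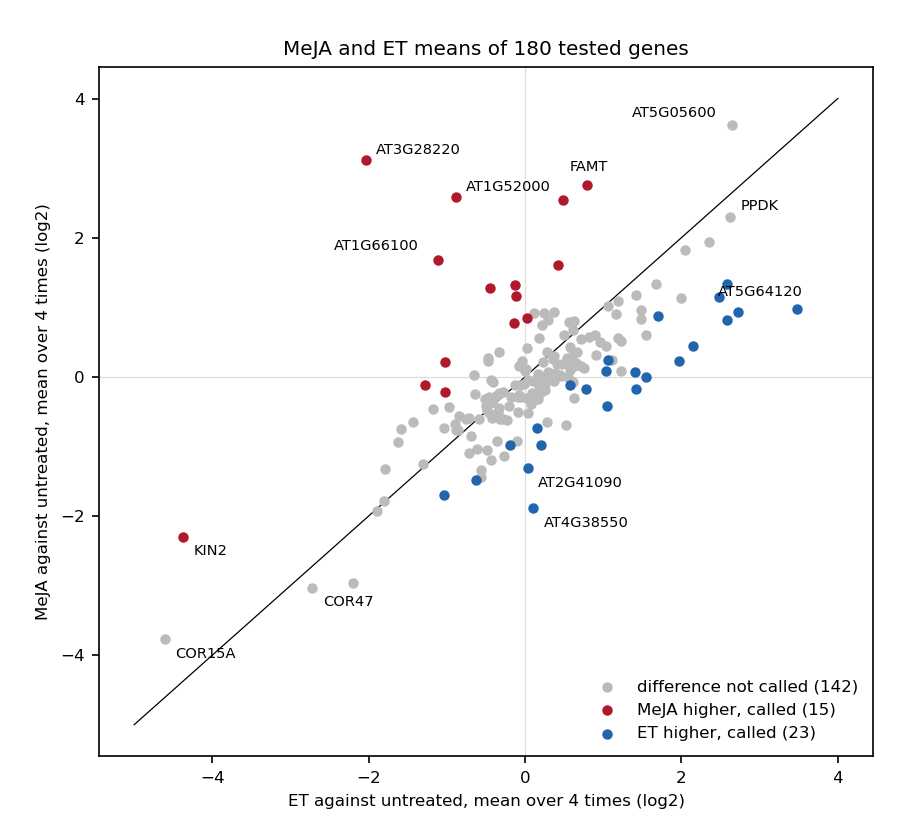
Mean log2 ratio against untreated plants under MeJA (vertical axis) and under ET (horizontal axis) for the 180 tested genes, each a mean over 2, 5, 10 and 24 h, with the diagonal where both are equal. The genes whose difference passed the test lie off the diagonal, 15 above it and 23 below it, with AT3G28220 farthest above and AT5G64120 farthest below.

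The 15 genes higher under MeJA reached that difference in several ways. Against untreated plants, 7 were called higher under MeJA and not called under ET, 3 were called lower under ET and not called under MeJA, 2 were called in the same direction under both and 3 were called in opposite directions. Over all tested genes, 83 of 180 (46.1%) were called under MeJA, 40 higher and 43 lower, and 97 (53.9%) under ET, 58 higher and 39 lower. These directions rest on the centring: as deposited they were 44 and 16 under MeJA and 90 and 11 under ET, after centring on TUA5 126 and 8, and 81 and 18, and after quantile normalization 89 and 21, and 102 and 20. The 3 genes called in opposite directions were AT3G28220, AT1G52000 and AT1G66100, and of these AT3G28220 alone was also called lower under ET in each of those settings.

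AT3G28220 encodes a TRAF-like protein with MATH domains and belongs to the jasmonate list used here. Its log2 ratios under MeJA were 4.49, 3.37, 2.19 and 2.41 at 2, 5, 10 and 24 h. Under ET they were -0.95, -2.88, -2.57 and -1.75. After median centring, every MeJA array lay above the untreated level and every ET array below it. As deposited, the ET 2 h value was not below it, since the median of that array was 1.20. The difference was 5.16 ± 0.45 (SE; limma, adjusted p = 9e-09), a 35.7-fold separation. The means under SA, INA, BTH and BABA, the other agents of the series, were -1.52, -1.64, -2.43 and -3.21, so MeJA was the sole agent with a mean above 0.

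AT1G66100 encodes a thionin, a small cysteine-rich defence peptide. It stood at 2.08, 1.43, 1.23 and 1.95 under MeJA and at 0.26, -0.82, -3.46 and -0.43 under ET. The groups did not overlap, but the difference at 10 h was the widest since the ET array was lowest there. MeJA exceeded ET by 2.79 ± 0.51 (limma, adjusted p = 0.00026). The mean under ET was -1.11, and those under SA, INA, BTH and BABA were -1.03, -1.91, -0.08 and -2.89. A mean below 0 was thus not particular to ET.

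FAMT encodes a methyltransferase that makes methyl farnesoate in vitro and is known as a jasmonate-responsive gene. Its values were 2.60, 3.55, 2.58 and 2.27 under MeJA and 1.55, 0.65, -0.20 and 1.15 under ET. It was called higher than in untreated plants under both agents, with a mean of 0.79 under ET. The means under SA, INA, BTH and BABA were 0.84, 0.66, 0.61 and -0.37, so the ET mean was not particular to ET. MeJA exceeded ET by 1.96 ± 0.35 (limma, adjusted p = 0.00022). OPCL1, a CoA ligase of jasmonate synthesis in the peroxisome, differed less. Its values were 1.41, 0.95, 1.05 and -0.32 under MeJA against 0.32, 0.00, -0.42 and -0.48 under ET, a difference of 0.92 ± 0.29 (limma, adjusted p = 0.026). The call for OPCL1 was lost without the 2, the 5 or the 10 h arrays.

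Genes of ER bodies, the spindle-shaped stores of beta-glucosidases that Brassicaceae use against herbivores, and of the lectins that associate with those enzymes formed the other main group. AT1G52000, a jacalin lectin, stood at 3.47, 2.27, 2.34 and 2.28 under MeJA and at -0.62, -0.99, -1.11 and -0.82 under ET. The groups lay more than 2 apart in log2 at their closest, and the difference was 3.47 ± 0.36 (limma, adjusted p = 2.5e-07), or 11.1-fold. Under SA, INA, BTH and BABA the means of AT1G52000 were -1.15, -1.10, -1.98 and -2.06, each lower than the -0.89 under ET. AT1G54010, a GDSL lipase-like protein found with ER body enzymes, stood at 1.85, 2.76, 2.60 and 2.94 under MeJA and at -0.52, 0.41, 0.52 and 1.51 under ET. MeJA exceeded ET by 2.06 ± 0.32 (limma, adjusted p = 6.3e-05).

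PYK10, a major ER body beta-glucosidase best known from roots, had a different time course. Its values were -0.05, 1.72, 1.52 and 2.06 under MeJA and -0.54, -0.78, -0.69 and 1.50 under ET, so the ET array came close to MeJA at 24 h. The difference was 1.44 ± 0.51 (limma, adjusted p = 0.044), and its call was lost without the 5 or the 10 h arrays. BGLU22, a related beta-glucosidase, stood at -0.03, 1.04, 1.08 and 1.27 under MeJA and at -0.25, -0.12, -0.23 and 0.71 under ET (difference 0.81 ± 0.25, limma, adjusted p = 0.025), and its call was lost without the same times. PYK10 and BGLU22 are close in sequence to other beta-glucosidases, and cross-hybridization between such copies was not tested. Of the 4 root markers listed, PYK10 was the sole one with a named spot.

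Also named on this side were AT3G21670, AT1G66760, AT1G62660 and ZW9. AT3G21670, a nitrate and peptide transporter family member, differed by 1.73 ± 0.58 with no MeJA value at 10 h (limma, adjusted p = 0.035). AT1G66760, a MATE efflux carrier, differed by 1.27 ± 0.33 with no ET value at 24 h (limma, adjusted p = 0.0092). AT1G62660, a vacuolar invertase that splits sucrose, stood at 0.69, 2.23, 1.18 and 2.31 under MeJA and at 0.09, 0.59, 0.12 and 0.91 under ET. ZW9, another TRAF-like protein gene, was separated mainly from the ET side, with means of -0.12 under MeJA and -1.28 under ET. Each of these 4 calls was lost without at least 1 of the times: 2, 10 or 24 h for AT3G21670, 5 h for AT1G66760, 5, 10 or 24 h for AT1G62660, and 10 h for ZW9. With values as deposited, the calls of AT1G66760, AT1G62660, ZW9, PYK10, BGLU22 and OPCL1 were also lost. AT1G73480 and GTR1, called higher under MeJA by 1.24 and 0.80, did not keep 1 sign. MeJA minus ET was -0.54 at 24 h for AT1G73480 and -0.005 at 2 h for GTR1. Their calls were lost without the 2, 5 or 10 h arrays for AT1G73480, and the 5, 10 or 24 h arrays for GTR1.

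**Figure D2:**
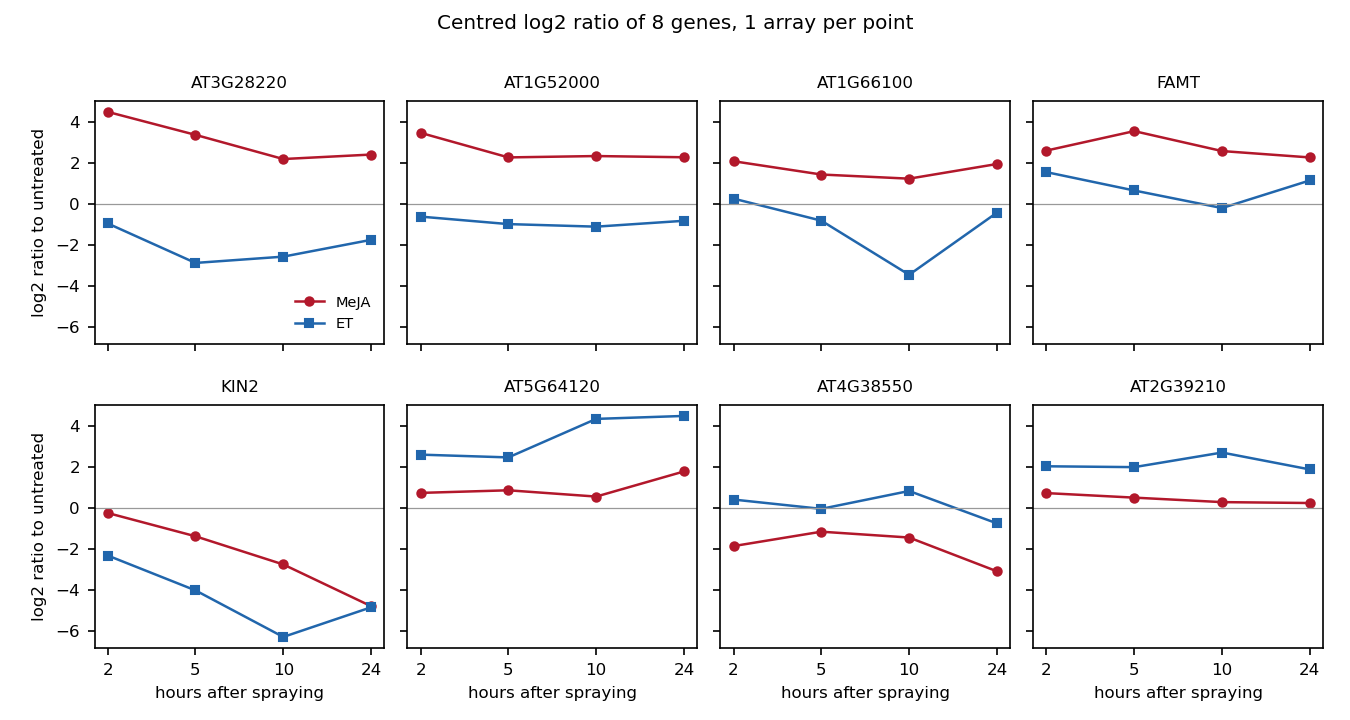
Log2 ratio against untreated plants (vertical axis) at 2, 5, 10 and 24 h after spraying (horizontal axis) for genes that separated MeJA from ET, each point 1 array. AT3G28220 stayed above 2 under MeJA and below -0.9 under ET, while AT5G64120 stood at 2.46 to 4.49 under ET and at 0.55 to 1.78 under MeJA.

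All 4 tested cold and dehydration genes (KIN2, COR15A, COR47 and RD2) were called lower than in untreated plants under both agents, and KIN2 was called higher under MeJA than under ET. RD2 was not called lower under ET as deposited, after centring on TUA5 or after quantile normalization, nor under MeJA after centring on TUA5, while the other 3 kept their calls in these settings. KIN2 encodes a small hydrophilic protein induced by cold and abscisic acid. It stood at -0.25, -1.39, -2.76 and -4.80 under MeJA and at -2.32, -4.03, -6.30 and -4.85 under ET. The agents were 2 or more apart up to 10 h and level at 24 h, and the mean difference was 2.08 ± 0.42 (limma, adjusted p = 0.00079; 0.23 without the time term). COR15A, a chloroplast protein that protects membranes in the cold, had means of -3.77 under MeJA and -4.61 under ET, and the difference of 0.84 had a 95% interval from -0.22 to 1.90. COR47, a dehydrin, had means of -3.03 and -2.72 (interval of the difference -0.95 to 0.34). RD2, a stress protein of the universal stress family, went the other way, at -1.48 under MeJA and -0.63 under ET (difference -0.86 ± 0.29, limma, adjusted p = 0.037), with its call lost as deposited, after centring on TUA5 and without the 5, the 10 or the 24 h arrays.

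The 23 genes higher under ET were called higher than in untreated plants under ET and not called under MeJA in 10 cases, called lower under MeJA and not called under ET in 5, and called in the same direction under both in 8. AT5G64120 encodes a class III peroxidase, an extracellular enzyme that uses hydrogen peroxide to cross-link or loosen cell wall polymers. It stood at 2.60, 2.46, 4.34 and 4.49 under ET and at 0.73, 0.86, 0.55 and 1.78 under MeJA. It was called higher than in untreated plants under both agents, and ET exceeded MeJA at every time. MeJA minus ET was -2.49 ± 0.37 (limma, adjusted p = 2.7e-05), which is 5.63-fold. The means under SA, INA, BTH and BABA ran from 2.00 to 3.63, so MeJA had the lowest mean of the 6 agents.

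AT4G38550, annotated as a phospholipase-like protein of the PEARLI 4 family, separated the agents by a fall under MeJA. It stood at -1.86, -1.16, -1.45 and -3.09 under MeJA and at 0.41, -0.05, 0.83 and -0.76 under ET. The groups did not overlap, and the difference was -2.00 ± 0.29 (limma, adjusted p = 2.7e-05). Its means under SA, INA, BTH and BABA were 1.32, 1.45, 0.09 and 2.64. AT2G41090, an EF-hand protein of the calmodulin type, showed the same kind of separation, with means of -1.31 under MeJA and 0.03 under ET (difference -1.34 ± 0.24, limma, adjusted p = 0.00022).

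AT4G36850, a PQ-loop membrane protein, stood at 3.49, 1.96, 3.45 and 1.98 under ET and at 0.77, 1.68, 0.03 and 1.24 under MeJA. Its difference of -1.79 ± 0.47 (limma, adjusted p = 0.0091) was small at 5 h, and its call was lost without the 10 h arrays or after centring on TUA5. AT2G39210, a major facilitator family transporter, stood near 2 or above under ET (2.03, 1.99, 2.70 and 1.88) and below 1 under MeJA (0.72, 0.50, 0.28 and 0.24), a difference of -1.71 ± 0.36 (limma, adjusted p = 0.00085). AT2G39980, an acyltransferase of the HXXXD type, stood at 1.91, 2.73, 2.59 and 3.12 under ET and at 1.11, 1.18, 0.42 and 0.58 under MeJA. AT2G39400, an alpha/beta hydrolase, had means of 1.97 under ET and 0.22 under MeJA, where the 24 h value is missing. FDH, formate dehydrogenase of the mitochondrion, had means of 2.48 and 1.15 (difference -1.33 ± 0.26, limma, adjusted p = 0.00065).

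Neighbouring genes of the same family appeared as pairs. AT1G78830 and AT1G78850, which encode curculin-like lectins, differed by -1.60 ± 0.27 and -1.55 ± 0.28 (limma, adjusted p = 0.00012 and 0.00023). Both were called higher under ET and not called under MeJA. AT4G20830 and AT4G20840, berberine bridge enzyme-like oxidases, differed by -1.46 ± 0.40 and -1.34 ± 0.38 (limma, adjusted p = 0.012 and 0.013). Cross-hybridization within each pair was not tested. The calls of both oxidases were lost after centring on TUA5. Leaving out the 5 h arrays also ended both oxidase calls, and leaving out the 10 h arrays ended that of AT4G20830.

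Smaller called differences completed this side. AT2G18690 had means of 1.33 under MeJA, without a 10 h value, and 2.58 under ET. AT3G10720, a pectin methylesterase that modifies cell wall pectin, had means of -0.18 and 0.78. AT4G37520, another class III peroxidase, had means of 0.87, without a 24 h value, and 1.71. AT2G31810, AT2G45180, AT4G26910, AT5G18490, AT3G28480, AT4G02220 and AT4G05150 differed by -1.19 to -0.65. Each of these 10 calls was lost after centring on TUA5 and without at least 1 of the times. AT4G02220 and AT4G05150 lost theirs whichever time was left out, and in 13 and 11 of the 19 alternatives. The spots of AT4G02220 also differed from each other by a median of 0.63 in size.

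**Figure D3:**
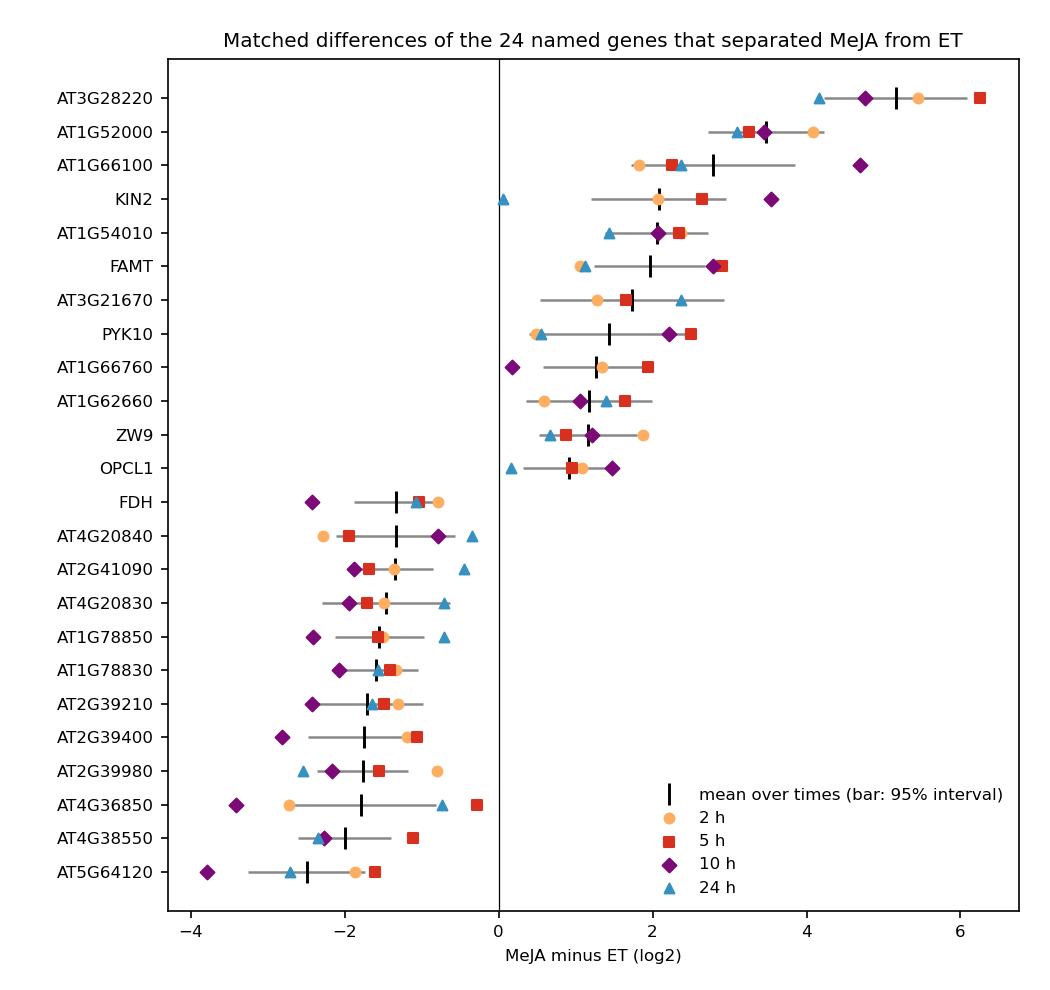
MeJA minus ET in log2 (horizontal axis) at each of 2, 5, 10 and 24 h (points) for the 12 highest and 12 lowest called genes with 1 sign at every measured time, with the mean over times and its 95% interval. The points of AT3G28220 lie between 4.16 and 6.25, and those of KIN2 reach down to 0.06 at 24 h.

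The pathway lists, drawn up with earlier results of these data known, had few members on the array, so they are given as counts beside the 21.1% called over all tested genes. Of 31 jasmonate genes, 7 had a named spot and 4 were tested. MeJA exceeded ET in 3 of them, AT3G28220, AT1G66100 and FAMT. The fourth, AT5G05600, encodes an oxidase of the family that inactivates jasmonate, and had means of 3.62 under MeJA and 2.64 under ET (difference 0.98, 95% interval 0.21 to 1.74, limma, adjusted p = 0.059). The median difference of these 4 was 2.37, against -0.23 over all tested genes. The list does not hold OPCL1, the jasmonate synthesis gene given above, whose called difference was 0.92.

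Of 22 genes of ER bodies and associated lectins, 8 had a named spot, 4 were tested and 4 were higher under MeJA (AT1G52000, AT1G54010, PYK10 and BGLU22), with a median difference of 1.75. Of 27 ethylene genes, 4 had a named spot and 3 were tested, and 0 of the 3 differed between the agents by the test. EIN3, the central transcription factor of the ethylene response, had means of -0.51 under MeJA and -0.09 under ET, with a 95% interval of the difference from -0.93 to 0.10 (limma, adjusted p = 0.23). Of 14 genes of amino acid catabolism and sugar starvation, 7 were tested and 1 differed, FDH. Of 12 listed class III peroxidases, 2 were tested and 1 differed, AT5G64120. The list does not hold the whole family: picked after their values were seen, AT4G37520 was also tested and called higher under ET, and AT1G44970 was 0.69 higher under MeJA and not called (limma, adjusted p = 0.077). Of 18 cold and dehydration genes, 4 were tested, 1 was higher under MeJA and 1 under ET. Of 6 salicylate markers, 0 had a named spot.

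PDF1.2, the defensin gene used as marker of joint jasmonate and ethylene signalling, had too few values for the test. It stood at 0.28, 2.78, 3.45 and 2.57 under ET, and at 0.57 and 2.94 under MeJA at 5 and 10 h, with no MeJA value at 2 or 24 h. The agents were thus 2.21 apart at 5 h and 0.52 apart at 10 h, with ET higher at both, and these differences have no test.

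At single times, a difference of at least 1 in log2 size was reached by 42 of 180 genes at 2 h (23.3%), 48 of 179 at 5 h (26.8%), 64 of 177 at 10 h (36.2%) and 31 of 168 at 24 h (18.5%). There is 1 array on each side, so these differences have no replicate check. As a technical yardstick, repeat arrays, which share their RNA per the labels, in other conditions of the series differed by at least 1 in 9.09% of genes (BTH 5 h), 5.96% (INA 10 h) and 7.97% (INA 24 h). For INA at 10 h, 1 of the 2 arrays carries 2 h in its source name, against the 10 h of its title and protocol, so that pair may not share its RNA. Genes higher under MeJA and under ET numbered 21 and 21 at 2 h, 24 and 24 at 5 h, 23 and 41 at 10 h, and 12 and 19 at 24 h. As deposited these were 3 and 127, 32 and 15, 9 and 116, and 31 and 11, and after centring on TUA5 29 and 15, 45 and 9, 68 and 13, and 25 and 14. The balance between the directions at a time therefore rests on the centring, and no direction or contrast between times can be read from it.

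**Figure D4:**
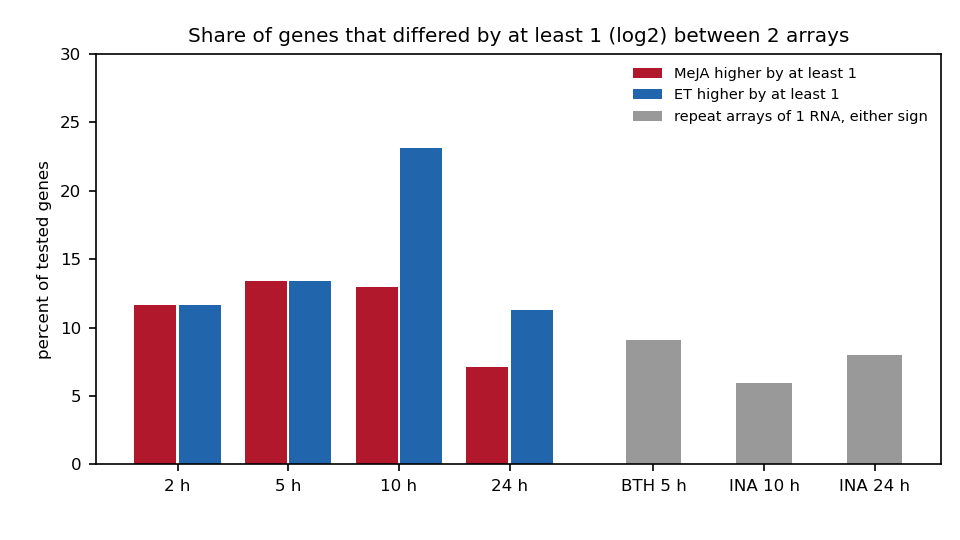
Percent of tested genes (vertical axis) with a log2 difference between MeJA and ET of at least 1 in size at 2, 5, 10 and 24 h, split by the agent with the higher value, beside the percent in either direction between repeat arrays of the same condition (grey). The 10 h pair has the highest total, 36.2%, and the repeat arrays lie between 5.96% and 9.09%.

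Few genes passed that size throughout. Among 164 tested genes with all 4 pairs, 5 were at least 1 higher under MeJA at every time (AT1G52000, AT1G54010, AT1G66100, AT3G28220 and FAMT) and 4 were at least 1 higher under ET at every time (AT1G78830, AT2G39210, AT4G38550 and AT5G64120). These counts were 3 and 2 as deposited, 6 and 2 after centring on TUA5, 4 and 4 after quantile normalization, and 4 and 5 after scaling. AT3G28220, AT1G52000, AT1G54010 and AT5G64120 were among them in each of these settings. After median centring, a further 20 were higher under MeJA by this measure at 1 time alone, and 36 were higher under ET at 1 time alone.

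Several wide differences at a single time did not give a call over the 4 times. AT3G15450, an aluminium-induced-type protein gene of the sugar starvation list, stood at 1.71, 2.44, -1.40 and -2.42 under MeJA and at 1.20, 2.06, 1.61 and 0.04 under ET. The agents were close at 2 and 5 h and 3.01 and 2.46 apart at 10 and 24 h. AT3G09440, an HSP70 chaperone gene, was 2.64 higher under MeJA at 24 h, and ECS1 was 2.61 higher under ET at the same time. YLS5 was 2.21 higher under ET at 5 h, AT5G51830 was 2.48 higher under ET at 10 h, and at 2 h AT4G24060, a DOF transcription factor gene, was 2.05 higher under ET.

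Whether the MeJA to ET difference moved between the early (2 and 5 h) and late (10 and 24 h) phases was tested for every gene. By limma across all 6 agents, 0 of 180 genes (0%) passed the threshold. An unadjusted p under 0.05 was reached by 4 genes, and the smallest adjusted p was 0.99 (limma). This fit had no time term, so changes within a phase counted as spread. The SE was 1.31 for AT3G28220 and 1.36 for KIN2, against 0.45 and 0.42 for the mean over the times. A missed threshold here does not show that a difference stayed the same. With MeJA and ET fitted alone, 1 gene passed, AT3G15450, whose difference moved by -3.18 ± 0.48 (limma, adjusted p = 0.0497). Across all agents the same shift was -3.18 ± 1.69.

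MeJA and ET were called in the same direction in 49 genes, 25 higher and 24 lower, and in 10 of these the sizes also differed by the test. The other 39 (21.7%), 18 higher and 21 lower, showed no called difference, and in 23 of them the 95% interval of the difference lay within 1 log2 on either side of 0. Both ratios are set against untreated plants of the same kind, so effects of spraying, humidity or dye shared by the agents cannot be told apart from effects of the hormones. After centring on TUA5 the 39 became 67 (61 higher and 6 lower), and after quantile normalization 64 (55 and 9).

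AT5G05600, described above, had the largest shared rise. It also had means of 2.84, 2.45, 0.52 and 2.43 under SA, INA, BTH and BABA. A shared call therefore does not make a gene particular to MeJA and ET. PPDK, which makes phosphoenolpyruvate from pyruvate and is active in ageing leaves, stood at 1.67, 2.26, 1.79 and 3.49 under MeJA and at 2.75, 2.30, 3.01 and 2.43 under ET. The arrays overlapped and the 95% interval of the difference ran from -1.01 to 0.37. AT2G41410, a calmodulin-like protein gene, had means of 1.82 and 2.04 (interval -0.81 to 0.36). MCCA, a subunit of the enzyme that breaks down leucine, had means of 1.09 and 1.19 (interval -0.94 to 0.75). MCCB, the other subunit, went the other way in the fit with the wider filter described below. Its means were -0.87 under MeJA and -0.39 under ET, both called lower (limma, adjusted p = 0.00014 and 0.045). AT1G66180, an aspartyl protease-like gene, had means of 1.18 and 1.41 (interval -0.75 to 0.29), and AT1G33110, a MATE carrier, 1.02 and 1.07 (interval -0.83 to 0.74). AT5G14120, a membrane protein of the major facilitator type, had means of 1.94 and 2.35, and AT4G27450, of the same aluminium-induced type as AT3G15450, 1.33 and 1.68. For AT3G22750, a protein kinase gene with means of 1.13 and 2.00, the interval of the difference lay below 0 (-1.52 to -0.22) while the adjusted p was 0.05 to 2 decimals and above the threshold (limma).

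The shared falls were led by COR15A and COR47, given above. COR15A was also below 0 under the other agents, with means of -1.06, -1.27, -2.29 and -3.49 under SA, INA, BTH and BABA. AT3G62550, a universal stress protein gene, had means of -2.97 under MeJA and -2.21 under ET. CCL, a gene of unstable transcripts under clock control, had nearly equal means of -1.92 and -1.90. Its arrays stood at -3.04, 0.26, 0.06 and -4.96 under MeJA and at -2.93, -0.63, -1.76 and -2.27 under ET. Equal means therefore hid a higher MeJA value at 10 h and a lower one at 24 h. BGLU44, a beta-glucosidase, also had equal means of -1.79 and -1.81, with single differences from -1.59 at 24 h to 1.17 at 10 h. The labels do not give the hour of harvest of the untreated plants.

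AT3G61260, a remorin of the plasma membrane, fell alike at -1.25 and -1.30 (interval -0.49 to 0.60), and a second remorin, AT2G45820, had means of -0.94 and -1.62 (limma, adjusted p of the difference 0.058). AT1G29660, a GDSL lipase gene, had means of -1.32 and -1.80. With values as deposited, the fall of AT3G61260 under ET and of AT2G45820 under MeJA did not pass the test. After centring on TUA5, the falls of AT3G61260, AT2G45820 and AT1G29660 under MeJA did not pass it. Of the 23 closely alike genes, 16 stayed under 1 in size at every single time and 7 did not.

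**Figure D5:**
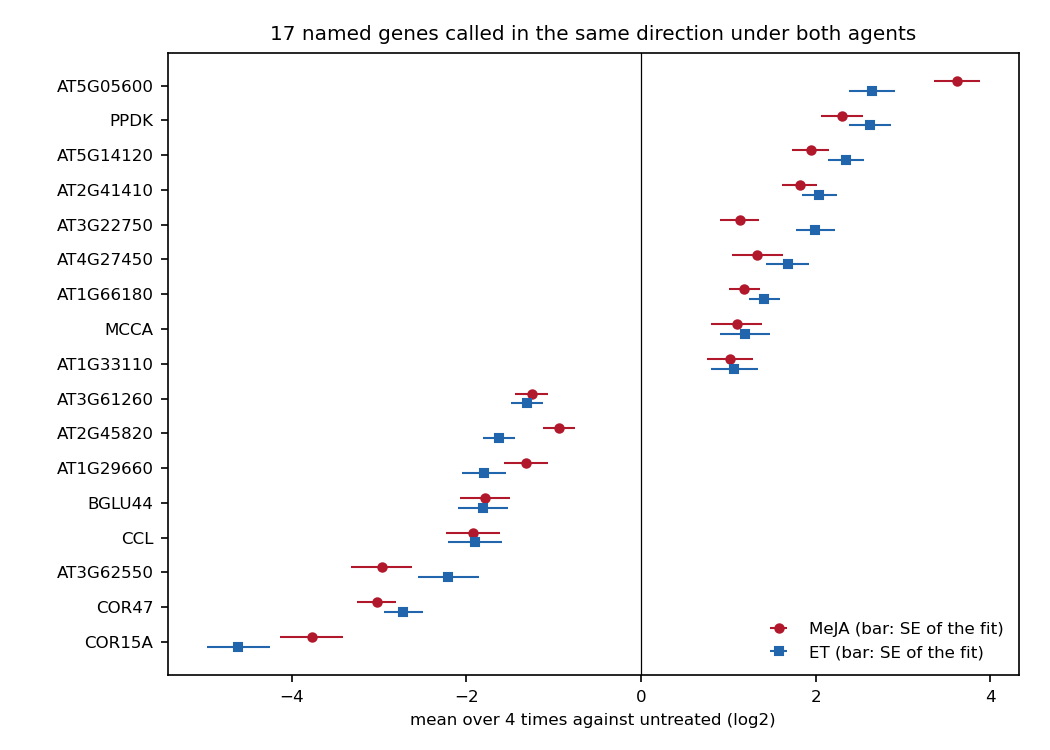
Log2 ratio against untreated plants (horizontal axis) under MeJA and ET for the 17 named genes called in the same direction under both and with no called difference, with each mean over the times as a point and the SE of the fit as a bar. COR15A has the lowest means (-3.77 and -4.61) and AT5G05600 the highest (3.62 and 2.64).

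Of the 416 named genes, 236 did not have enough values for the test, and 70 of these had all 4 pairs. Of those 70, AT2G43530 alone was at least 1 apart in size at each time, as it also was as deposited, after centring on TUA5, after quantile normalization and after scaling. As deposited Prx37, and after centring on TUA5 JAL34 and KIN1, were so as well. AT2G43530 encodes a defensin-like trypsin inhibitor and stood at 2.34, 1.44, 2.31 and -0.01 under MeJA and at -1.33, -1.95, -1.70 and -1.70 under ET. Fitted with a wider filter that admitted 117 more genes, 27 of these passed, 16 higher under MeJA and 11 under ET. AT2G43530 then differed by 3.19 ± 0.35 (limma, adjusted p = 1.9e-05).

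The wider filter also admitted list members. JAL34, a jacalin lectin of the ER body group, stood at 1.88, 2.83, 2.00 and 1.49 under MeJA and at -0.17, -1.50, -0.29 and 0.57 under ET (difference 2.40 ± 0.37, limma, adjusted p = 0.0002). BGLU21 differed by 1.20 ± 0.29 (limma, adjusted p = 0.0069), and KIN1, the neighbour and close copy of KIN2, by 1.73 ± 0.34 (limma, adjusted p = 0.0013). THI2.1, the thionin gene used as a jasmonate marker, differed by 1.12 ± 0.30 (limma, adjusted p = 0.011). Its mean was 0.30 under MeJA, not called and without a 24 h value, and -0.82 under ET, called lower. NAI2, needed to form ER bodies, differed by 1.02 ± 0.38 and missed the threshold (limma, adjusted p = 0.062). COR15B had means of -4.80 and -5.48 (limma, adjusted p = 0.12).

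On the ET side, the wider filter added Prx37, another class III peroxidase, at 0.59, 2.49, 3.28 and 2.82 under ET and at 0.66, 0.08, 0.59 and -0.04 under MeJA. The agents were level at 2 h and apart afterwards, and the mean difference was -1.97 (limma, adjusted p = 0.0023). Prx37 does not stand for its family. The class III peroxidases AT5G19890, AT5G40150, AT5G51890, AT3G28200 and AT2G38380 were also admitted and not called. Their differences were 0.32, 0.31, 0.25, 0.09 and -0.07. AT1G12010, an oxidase of the last step of ethylene synthesis that was on no list and was picked after its values were seen, stood at 1.15, 2.05, 0.68 and 1.38 under ET and at 0.05, 0.14, -0.23 and 0.16 under MeJA. Its difference was -1.29 (limma, adjusted p = 0.0017). AT2G38240, a jasmonate oxidase gene measured at 2 and 5 h alone, stood at 5.92 and 2.69 under MeJA and at 3.42 and 1.13 under ET, with no test. JMT, which methylates jasmonate, had 2 pairs, with differences of -0.65 at 2 h and 0.29 at 10 h.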

How the data were processed

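The deposited values are log ratios of treated (Cy5) over untreated (Cy3) RNA per spot, taken here as log2, since the logarithm's base is not stated; background correction and normalization are likewise not given in the sources used here. The range from -10.6 to 10.9 does not settle the base. Per the labels, slides were read on a ScanArray scanner as medians of pixels. Without intensities, how far spots lay above background is unknown.

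Spots were named through the platform annotation, updated with RefSeq's TAIR10.1 table (415 of 416 genes matched), which named 884 of 2560 spots and left 1676 unnamed. None carried several names. Arrays were median-centred, a gene's spots averaged, and repeat arrays of a condition (same RNA) averaged. Genes with values in at least 20 of 24 conditions and 3 of 4 times per agent were tested: 180, of which 137 were complete. R 4.3.3 and limma 3.58.1 fitted a mean per agent and a common time term over all 24 conditions of 6 agents (prior degrees of freedom 8.16, residual 15), two-sided, with Benjamini-Hochberg adjustment over all tested genes and a threshold of 0.05. The phase test fitted a mean per agent and phase instead, without a time term (prior degrees of freedom 5.36, residual 12). P-values thus rest on the spread between single pooled samples over agents and times, part of which may be technical. The steps were tested on simulated data.

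Genes named are the 12 highest and 12 lowest called differences with 1 sign at all measured times, the 8 strongest common genes each way, closely alike genes with both means of at least 1 in size, the extremes at each time, untested genes at least 1 apart at each of 4 pairs, and listed genes. Members, lists and rules were chosen with earlier results of these data known. Alternatives covered centring, scaling, filters, spots, repeat arrays, the time term, the samples in the fit, the variance model and each time left out. No sequences or coordinates were used here.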

Additional observations from a re-analysis of the deposited data

How the results depend on the processing

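Over 19 alternatives, 9 of the 38 calls between MeJA and ET were kept in every one that was run for the gene (AT3G28220, AT1G52000, AT1G54010, FAMT, AT2G39210, AT2G39400, AT2G39980, AT4G38550 and AT5G64120), and 0 of the 38 reversed. AT1G52000 and AT2G39400 have missing values, so 18 alternatives were run for them, without that of complete genes. The count of 38 became 22 with values as deposited, 69 with the wider filter (more genes tested), 11 without the time term, 24 with MeJA and ET fitted alone, and 18 to 38 with 1 time left out (22 without 5 h, 18 without 10 h). Genes called against untreated plants became 134 for MeJA after centring on TUA5, and 127 for MeJA and 158 for ET with the wider filter. Genes called in the same direction numbered 67 after centring on TUA5 and 64 after quantile normalization. The phase test called 1 gene with the agents fitted alone. As deposited, 130 genes were at least 1 apart at 2 h and 125 at 10 h. With the replicate number as a block, 39 genes were called. All MeJA and ET arrays carry replicate number 1, so the number pairs nothing between them.

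Reversals were all of uncalled differences between MeJA and ET. As deposited, BGLU44 was -0.33 and AT3G61260 -0.30. Centred on TUA5, PPDK was 0.24, AT5G14120 0.15, AT2G41410 0.33, AT4G27450 0.28, AT1G66180 0.32, MCCA 0.46, COR47 0.25, CCL 0.53, AT1G33110 0.51 and EIN3 0.14. After quantile normalization, MCCA was 0.033, CCL 0.54 and AT1G33110 0.077. After scaling, MCCA was 0.15, CCL 0.21, AT3G61260 -0.13 and AT1G33110 0.046. With the later spot of each gene alone, CCL was 0.018 and BGLU44 -0.021. With 1 time left out, CCL ran from -0.64 to 0.87, AT1G33110 from -0.23 to 0.15, BGLU44 from -0.37 to 0.56, AT3G61260 from -0.11 to 0.24, AT4G27450 from -0.74 to 0.27 and MCCA from -0.43 to 0.23. Apart from the settings that change the filter, the samples or the terms, the cause was not tested.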

Other observations

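Spots without a gene name carry signal of the same kind. Of 1676 such spots, 928 had all 4 pairs, 39 were at least 1 higher under MeJA at every time and 22 were at least 1 higher under ET at every time. These counts were 23 and 13 as deposited, 67 and 5 after centring on TUA5, 44 and 20 after quantile normalization, and 41 and 22 after scaling. After median centring, their mean differences reached 5.56 and -3.27. They are unnamed here, and several spots may hold the same gene.

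The 24 named genes that separated MeJA from ET were also compared with the means of the other agents. Among the 12 higher under MeJA, 9 had their highest mean of all 6 agents under MeJA, against 39 of all 180 tested genes. Among the 12 higher under ET, 10 had their lowest mean under MeJA and 5 their highest mean under ET, against 51 and 37 of all 180. The choice of these genes used the MeJA and ET values, so the shares are a description.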
